A study of Arabidopsis thaliana with 8 samples.

Results

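The 9 genes described here encode the cytosolic ribosome recycling, release and rescue factors of Arabidopsis. They were taken by locus from a table of 32833 genes, by what they encode and with no threshold on measured values. They are the recycling ATPases ABCE2 (AT4G19210) and ABCE1 (AT3G13640), the release factors ERF1-1 (AT5G47880), ERF1-2 (AT1G12920), ERF1-3 (AT3G26618) and eRF3 (AT1G18070), and the rescue factors PEL1 (AT4G27650), PEL2 (AT3G58390) and HBS1 (AT5G10630). ABCE2 was the target of the RNA interference in these seedlings, so its own lower level is a check of the construct.

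At a stop codon, eRF1 enters the ribosome with the GTPase eRF3 and releases the finished protein, and an ABCE ATPase then splits the ribosome into its subunits. Where a ribosome stalls without a stop codon, Pelota, a relative of eRF1, enters with HBS1, a relative of eRF3, and ABCE again splits the subunits. ABCE is therefore shared by termination and rescue, while eRF1 and Pelota each bring it to one of these routes.

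Transcripts were measured by RNA sequencing of whole seedlings in 8 libraries. RNAi line 5 gave 2 libraries and RNAi line 12 gave 3, both carrying an RNAi construct against RLI2, which the table lists as ABCE2; wild type (WT, Col-0) gave 3. All seedlings spent 3 days at 4 °C and 7 days at 22 °C on half-strength MS medium under 16 h light and 8 h dark. The labels name neither the promoter of the construct nor whether replicates came from separate plates. The p-values therefore cover library-to-library spread only, some of which could be technical.

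The values are FPKM (fragment counts scaled to transcript length and library size), and low values implied 42280000 to 49010000 fragments per library. The 19395 genes that reached 1 FPKM in 2 or more libraries were tested with limma on log2(FPKM + 1), and p-values were adjusted over all of them with a threshold of 0.05. A fold change on this scale understates the change of low genes. Ribosomal RNA genes held 2.18% to 7.60% of the length-weighted signal in line 5 replicate 2 and line 12 replicates 2 and 3, and 0.161% to 0.468% in the other 5 libraries. The 8 root markers, all above 0 in every library, summed to 30.3 to 55.9 FPKM in the RNAi lines and 61.6 to 76.3 FPKM in WT. The 5 green shoot markers summed to 21458 to 27839 FPKM in the lines and 24159 to 25391 FPKM in WT. Both lists were split in the mean of both lines less WT. Of the root markers 1 was called higher, 4 lower and 3 neither, and of the shoot markers 1 higher, 2 lower and 2 neither. Over all tested genes, 28.1% were called in each direction. In whole seedlings, fewer cells of a type and less RNA per cell cannot be told apart, and the part of root content in the values below was not tested.

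Of the 9 factors, 7 passed the filter on low values, while ABCE1 and PEL2 did not. In the mean of both lines against WT, ERF1-1, ERF1-2, ERF1-3 and PEL1 rose, ABCE2 and HBS1 fell, and eRF3 did not pass the test. That is 6 of 7, beside a background of 56.1% of all tested genes called in that comparison. Line 5 alone against WT gave 4 of 7, where 44.6% of all tested genes were called, and line 12 alone gave 5 of 7, where 56% were called. Both lines are set against the same 3 WT libraries. The median log2 change of the 7 factors was 0.15 in line 5 and 0.21 in line 12, beside -0.0086 and -0.0024 over all tested genes. The counts of called factors lie above the background shares. They come from only 7 genes, and each includes the RNAi target ABCE2, whose fall is a check of the construct. They were not tested against the background and are not a result about the factors. The groups did not overlap for 6 of the 7 in line 5 against WT, beside 67.8% of all tested genes, for 6 of 7 in line 12 against WT, beside 64.1%, and for 6 of 7 in both lines against WT, beside 48.7%.

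ABCE2, the recycling ATPase, had 25.0 and 26.4 FPKM in line 5 and 26.7, 26.4 and 23.3 FPKM in line 12, against 57.5, 57.8 and 58.6 FPKM in WT. Every RNAi library lay below every WT library, and the ranges of both lines overlapped each other. The mean was 25.7 ± 0.998 FPKM (SD, n = 2) in line 5 and 25.5 ± 1.87 FPKM (SD, n = 3) in line 12, against 58.0 ± 0.541 FPKM (SD, n = 3) in WT. ABCE2 fell by 1.14 on the log2 scale in line 5 (SE 0.069, limma adjusted p = 1.77e-05) and by 1.16 in line 12 (SE 0.062, limma adjusted p = 6.98e-06), which left 44.3% and 44.0% of its WT level. In the mean of both lines, 569 of the 19395 tested genes had a more negative change than the target itself. Reads of a transcribed construct would count towards ABCE2 and could not be separated from it.

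The difference in ABCE2 between line 5 and line 12 was 0.01 on the log2 scale, with a 95% interval from -0.15 to 0.17 (limma adjusted p = 0.919). A difference of more than 0.17 in either direction thus lay outside that interval. Leaving out the 3 libraries above 2% ribosomal RNA leaves 1 library in each line, so WT alone then gives the spread and the lone libraries are assumed to vary like WT; only the sizes of the changes are read from it. Without those libraries the log2 change of ABCE2 was -1.18 in line 5 and -1.09 in line 12. Leaving out either line 5 library likewise leaves 1 in that line, which is assumed to vary like the other groups.

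ABCE1, the second ABCE gene, was listed at 0.179 and 0.326 FPKM in line 5 and 0.228, 0.271 and 0.435 FPKM in line 12, against 0.343, 0.369 and 0.348 FPKM in WT. These values stand for 19 to 45 fragments per library, and the line 12 range enclosed the WT range. ABCE1 made up 0.965% ± 0.359 of the summed ABCE1 and ABCE2 level in line 5 and 1.23% ± 0.525 in line 12, against 0.606% ± 0.0243 in WT (SD, n = 2, 3 and 3), and no library was above 1.83%. With no filter on low values its log2 change was -0.11 in line 5 (limma adjusted p = 0.337) and -0.05 in line 12 (limma adjusted p = 0.637). No rise of ABCE1 beside the loss of ABCE2 was therefore detectable at this depth. Another family member, ABCE3 (AT4G30300), stayed at or below 0.173 FPKM in all 8 libraries.

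The coding sequences of ABCE2 and ABCE1 were 79.3% identical over 1809 aligned bases. The longest stretch that both transcripts share is shown because reads inside it cannot be told apart between the genes. It covers bases 187 to 227 of both coding sequences (RefSeq, TAIR10.1) and crosses an intron, at chr4:10502312-10502447 on the plus strand for ABCE2.
ABCE2 and ABCE1: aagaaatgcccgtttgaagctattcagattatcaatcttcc
At 41 bases it is a small share of the 1818 coding bases of ABCE2. ABCE2 lies at chr4:10501123-10505217 with 13 exons, 11 of them coding.

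**Figure D1:**
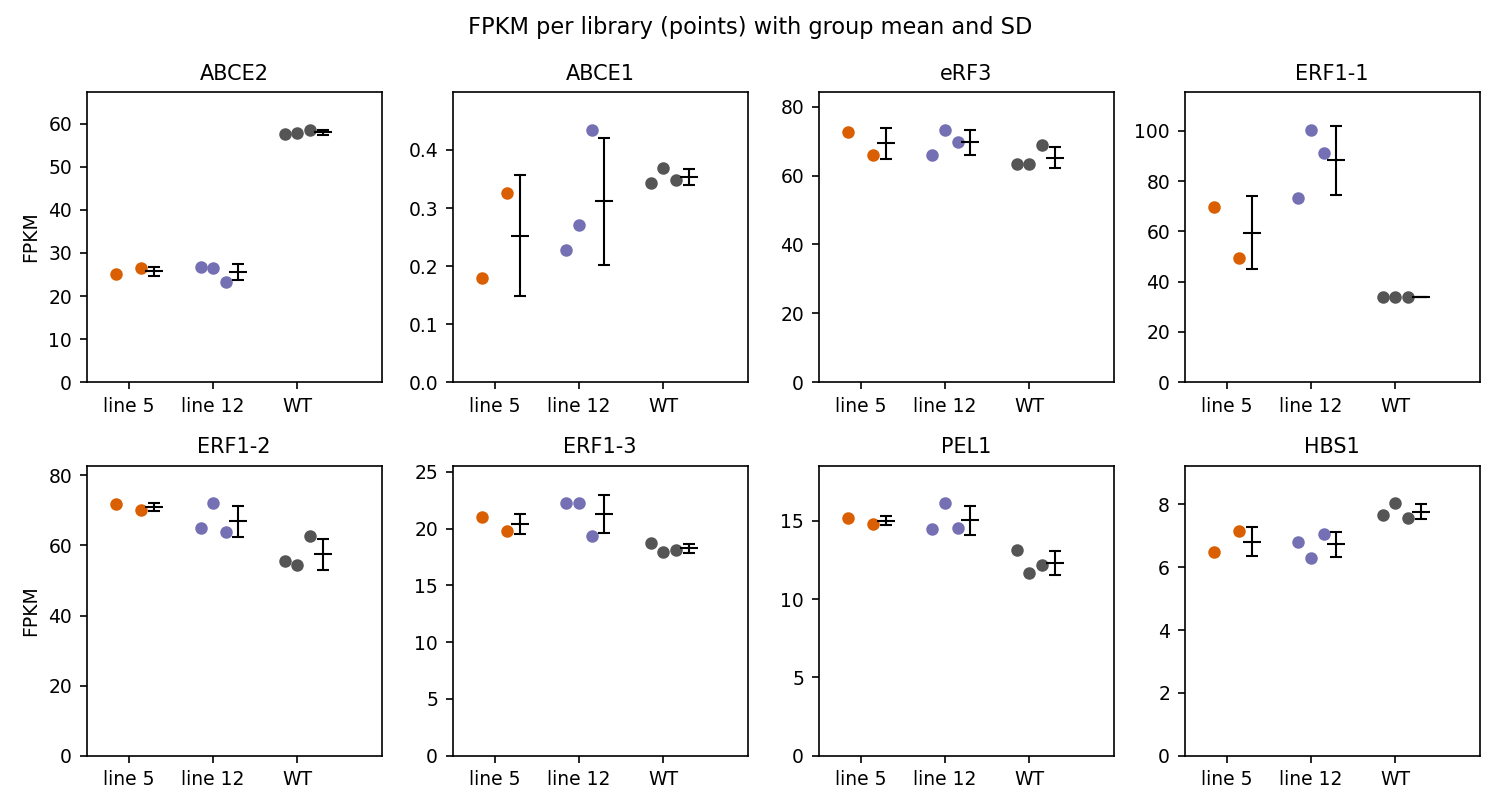
FPKM (vertical axes, each from 0) of 8 of the 9 factors in RNAi line 5 (2 libraries), RNAi line 12 (3) and WT (3); points are libraries, and the bars to their right give the mean and SD. ABCE2 sits between 23.3 and 26.7 FPKM in the lines and above 57 FPKM in WT, ERF1-1 sits between 49.4 and 100.4 FPKM in the lines and near 34.0 FPKM in WT, and PEL2, listed at 0 throughout, is not drawn.

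ERF1-1, one of the 3 eRF1 genes, which encode the protein that reads the stop codon, changed more than any other tested factor except ABCE2 in the mean of both lines. It had 69.7 and 49.4 FPKM in line 5 and 73.3, 100.4 and 91.0 FPKM in line 12, against 33.9, 34.0 and 33.9 FPKM in WT. The 3 groups did not overlap: line 12 was highest, line 5 lay between, and the WT libraries were within 0.1 FPKM of each other. The means were 59.5 ± 14.4 FPKM (SD, n = 2) in line 5 and 88.2 ± 13.8 FPKM (SD, n = 3) in line 12, against 34.0 ± 0.0395 FPKM (SD, n = 3) in WT.

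ERF1-1 rose 1.75-fold in line 5 (log2 change 0.77, SE 0.16, limma adjusted p = 0.00646) and 2.60-fold in line 12 (log2 change 1.34, SE 0.15, limma adjusted p = 0.000171). In the mean of both lines its log2 change was 1.06 ± 0.13 (SE), and 1024 of the 19395 tested genes had a higher one. The calls against WT held in every alternative that kept RNAi replicates in the fit; the smallest change in line 5 was 0.53, without its replicate 1 (adjusted p = 0.0473). With 1 library a line, those at or below 2% ribosomal RNA, it was 1.02 in line 5 and 1.09 in line 12.

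The lines differed in ERF1-1 by -0.57 on the log2 scale, line 5 less line 12 (SE 0.16, limma adjusted p = 0.0468). It was the only one of the 7 tested factors called in that comparison, in which 19% of all tested genes were called, and the only one whose libraries did not overlap between the lines, beside 49.6% of all tested genes. The call was lost when any 1 of the 3 WT libraries was left out (adjusted p from 0.0685 to 0.0744), and without line 5 replicate 2, where the difference was -0.32 (adjusted p = 0.276). It was also lost without line 12 replicate 2 (-0.47, adjusted p = 0.102) and without line 12 replicate 3 (-0.54, adjusted p = 0.116). Those 3 RNAi libraries are the ones above 2% ribosomal RNA, and without all of them 1 line 5 library stood against 1 line 12 library, with a difference of -0.07 that has no replicate check.

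ERF1-2, a second eRF1 gene, had 71.7 and 70.2 FPKM in line 5 and 65.0, 72.0 and 63.7 FPKM in line 12, against 55.4, 54.3 and 62.6 FPKM in WT. All RNAi libraries were above all WT libraries, with line 12 replicate 3 and WT replicate 3 closest to each other. It rose by 20.0% in the mean of both lines (log2 change 0.26, SE 0.065, limma adjusted p = 0.0103). By line, the change was 0.30 in line 5 (adjusted p = 0.0175) and 0.22 in line 12 (adjusted p = 0.0330). The line 5 call was lost without WT replicate 1 or 2 or without either line 5 library (adjusted p from 0.0542 to 0.0927), and the line 12 call without WT replicate 1 or 2 or line 12 replicate 2 (adjusted p from 0.0989 to 0.107). Median centring ended the line 12 call (adjusted p = 0.0757). With 1 library a line, those at or below 2% ribosomal RNA, the change was 0.32 in line 5 and 0.18 in line 12.

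ERF1-3, the third eRF1 gene, had 21.0 and 19.8 FPKM in line 5 and 22.2, 22.2 and 19.4 FPKM in line 12, against 18.7, 18.0 and 18.1 FPKM in WT. The lines lay above WT with no overlap, though the gap was under 1 FPKM. Its log2 change was 0.18 in the mean of both lines (SE 0.060, limma adjusted p = 0.0359), 0.21 in line 12 (adjusted p = 0.0306) and 0.15 in line 5, which did not pass the test (adjusted p = 0.139). Leaving out any 1 of WT replicates 1, 2 and 3, line 5 replicate 1 and line 12 replicates 1 and 2 ended the call in the mean of both lines (adjusted p from 0.0633 to 0.105). Without WT replicate 1, 2 or 3, or line 12 replicate 1 or 2, the line 12 call was lost as well (adjusted p from 0.0550 to 0.0914), and median centring ended both (adjusted p = 0.101 in the mean and 0.0822 in line 12). With 1 library a line, those at or below 2% ribosomal RNA, the change was 0.19 in line 5 and 0.27 in line 12.

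Summed over the 3 genes, eRF1 transcripts came to 162.4 and 139.3 FPKM in line 5 and 160.4, 194.6 and 174.1 FPKM in line 12, against 108.1, 106.3 and 114.6 FPKM in WT. ERF1-1 made up 42.9% and 35.4% of that sum in line 5 and 45.7%, 51.6% and 52.3% in line 12, against 31.4%, 32.0% and 29.6% in WT. ERF1-1 was the most abundant of the 3 eRF1 genes in every line 12 library, while ERF1-2 was the most abundant in both line 5 libraries and in all WT libraries. For each 100 FPKM of eRF1 there were 15.4 and 19.0 FPKM of ABCE2 in line 5 and 16.7, 13.6 and 13.4 in line 12, against 53.2, 54.3 and 51.1 in WT. These ratios are descriptions of the same values, taken within a library, and carry no test.

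**Figure D2:**
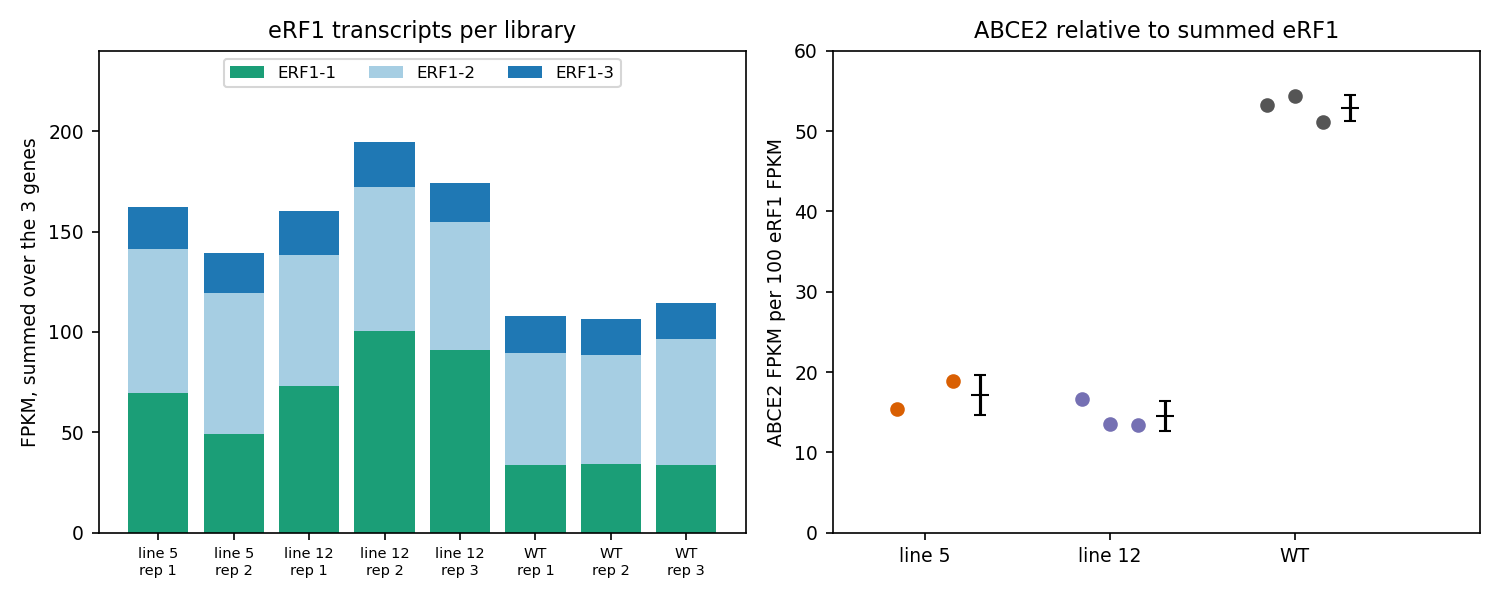
Left, FPKM of ERF1-1, ERF1-2 and ERF1-3 stacked for each library; right, ABCE2 FPKM per 100 FPKM of summed eRF1, with points for libraries and bars for the mean and SD. The stack is 139.3 FPKM or higher in the lines and at most 114.6 FPKM in WT, most of the added height is ERF1-1, and the ratio is at most 19.0 in the lines and at least 51.1 in WT.

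The coding sequences of the eRF1 genes were alike, and whether counting moved reads between them was not tested. ERF1-2 and ERF1-3 were 88.0% identical, and ERF1-1 was 79.7% identical to ERF1-2 and 78.9% to ERF1-3. The longest identical stretch between transcripts was 37 bases for ERF1-2 and ERF1-3 and 29 bases for ERF1-1 and ERF1-2. The labels do not say how shared reads were counted.

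The sequence around the stop codon is shown for all 3 eRF1 genes because eRF1 acts there, and because plant eRF1 is known for a feedback circuit in which readthrough of its own stop codon and nonsense-mediated decay set the level of its transcript. Each window of 30 bases holds 12 bases before the stop codon and 15 after it, with the stop codon in capitals (RefSeq, TAIR10.1).
ERF1-1: gatgattcggaaTGAcaatcaatcaaatcc
ERF1-2: gaagattctgatTAAagtgggaaaactttt
ERF1-3: gaagactcagatTAAgtaagagaaaatgtg
The stop codons lie at chr5:19386555-19386557 on the minus strand for ERF1-1, chr1:4396555-4396557 on the minus strand for ERF1-2 and chr3:9790159-9790161 on the plus strand for ERF1-3. ERF1-1, the eRF1 gene with the largest rise, ends in TGA followed by C, while the other two end in TAA. TGA ended 43.4% of 27343 genes, and TGA followed by C ended 4.19% of 23260.

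The bases just after the ERF1-1 stop codon, caatca, are 1 of 8 hexamers searched for there, on the coding strand and known from plant viral readthrough sites. These begin with CA, go on with a purine (A or G) and 2 pyrimidines (C or T each), and end in A. Of 23260 genes with annotated sequence after the stop, 22 (0.0946%) held one of them, and 6 (0.0258%) held one after TGA. ERF1-1 also has an annotated transcript with an exon junction 130 bases after the stop, and a second one with none. A junction more than 50 bases downstream of a stop is a known mark for nonsense-mediated decay, and 7.70% of 27343 genes had one. ERF1-1 was the only gene with such a hexamer after TGA and such a junction. BPM2, after TAG, and AT3G43930, after TAA, also held a hexamer and had such a junction, 464 and 190 bases after the stop. BPM2 had a log2 change of 0.08 in the mean of both lines (limma adjusted p = 0.367), and AT3G43930 did not pass the filter on low values.

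The other genes with these features were counted in the mean of both lines against WT. Of 1840 tested genes with a junction more than 50 bases after the stop, 25.5% were called higher and 23.6% lower, beside 28.1% in each direction over all tested genes. Of 760 tested genes that end in TGA followed by C, 28.8% were called higher and 27.0% lower, beside the same 28.1%. Of 13 tested genes with one of the hexamers, 2 were called higher and 2 lower, ERF1-1 being one of the higher. A match is a description of letters, and its part in the ERF1-1 values was not tested.

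The GTPase eRF3, which partners eRF1, had 72.6 and 66.1 FPKM in line 5 and 65.9, 73.3 and 69.8 FPKM in line 12, against 63.5, 63.4 and 68.9 FPKM in WT. The lines and WT overlapped. Its log2 change in the mean of both lines was 0.09 (limma adjusted p = 0.217) with a 95% interval from -0.04 to 0.22, so a change past 0.22 lay outside that interval. For each 100 FPKM of summed eRF1 there were 44.7 and 47.5 FPKM of eRF3 in line 5 and 41.1, 37.7 and 40.1 in line 12, against 58.7, 59.7 and 60.1 in WT. The eRF3 transcripts ended as follows, shown beside the recycling and rescue genes for comparison with the eRF1 windows.
eRF3: gtctcaagcgctTGAtccaaattttgtgag
ABCE2: tacttggatgatTAGgacaactaccaagag
PEL1: gacattgagatgTAAaaaaatcttcggctt
HBS1: atccaagactcaTAAacattctctgttgtt
None of these 4 holds one of the 8 hexamers just after the stop codon, and eRF3 shares only the TGA with ERF1-1.

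PEL1, the Pelota gene that was detected, had 15.2 and 14.8 FPKM in line 5 and 14.5, 16.1 and 14.5 FPKM in line 12, against 13.1, 11.6 and 12.1 FPKM in WT. All RNAi libraries were above all WT libraries, and the lines overlapped each other. PEL1 rose by 22.1% in the mean of both lines (log2 change 0.27, SE 0.060, limma adjusted p = 0.00650), with a change of 0.27 in line 5 (adjusted p = 0.0217) and 0.27 in line 12 (adjusted p = 0.0101). The line 5 call was lost without WT replicate 2 or 3 or without either line 5 library (adjusted p from 0.0520 to 0.111). With 1 library a line, those at or below 2% ribosomal RNA, the change was 0.29 in line 5 and 0.22 in line 12.

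HBS1, the GTPase that works with Pelota, had 6.48 and 7.14 FPKM in line 5 and 6.80, 6.30 and 7.07 FPKM in line 12, against 7.68, 8.03 and 7.57 FPKM in WT. All RNAi libraries were below all WT libraries, opposite to PEL1. HBS1 fell by 12.8% in the mean of both lines (log2 change -0.17, SE 0.061, limma adjusted p = 0.0416), while the change missed the threshold in line 5 (-0.17, adjusted p = 0.111) and in line 12 (-0.18, adjusted p = 0.0513). The call in the mean of both lines was lost without any 1 of WT replicates 1, 2 and 3, line 5 replicate 1 and line 12 replicates 1 and 2 (adjusted p from 0.0596 to 0.133), with no filter (0.0640) and after rescaling (0.0910). In line 12, HBS1 was called lower with a filter at 5 FPKM (adjusted p = 0.0479) and with median centring (-0.23, adjusted p = 0.0206). For each 100 FPKM of HBS1 there were 234.7 and 207.0 FPKM of PEL1 in line 5 and 212.5, 255.6 and 205.6 in line 12, against 170.8, 144.9 and 160.5 in WT. The HBS1 locus is also known to give a SKI7-type cofactor of the RNA exosome by alternative splicing, 5 transcripts are annotated, and values per gene do not separate them.

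PEL2, the second Pelota gene, was listed at 0 in all 8 libraries, so no comparison was made. It is annotated with 1 exon and PEL1 with 16 or 17, and their coding sequences were 87.3% identical over 1136 aligned bases. Their longest shared stretch, of 45 bases, is shown because a read inside it could come from either gene. It lies at chr4:13805535-13805579 in PEL1 and chr3:21600713-21600757 in PEL2, on the minus strand of both.
PEL1 and PEL2: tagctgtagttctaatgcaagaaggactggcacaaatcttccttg

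**Figure D3:**
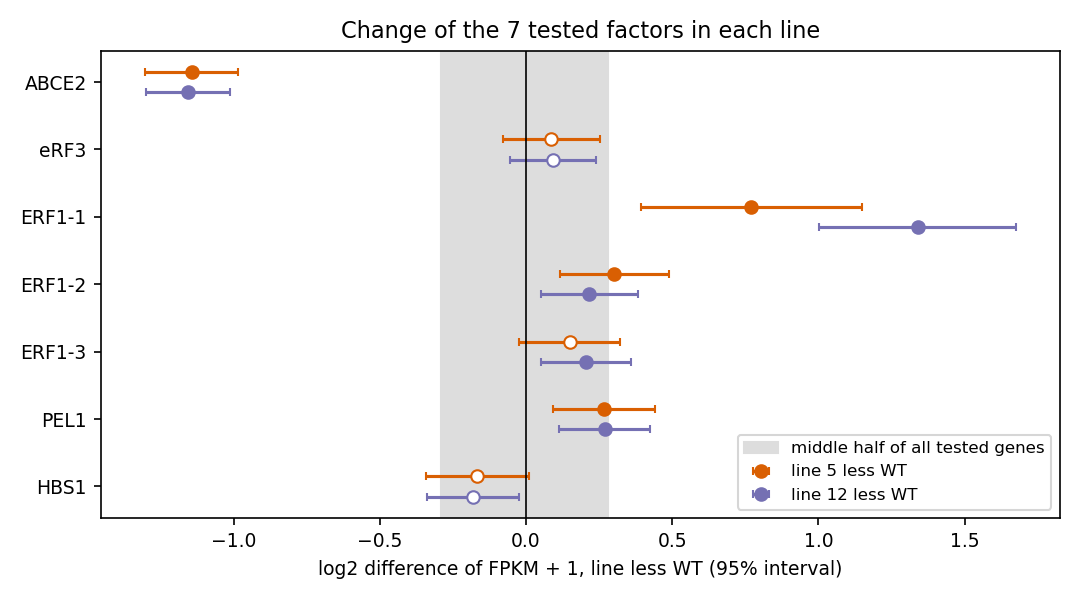
Log2 difference of FPKM + 1 for the 7 tested factors in line 5 less WT and line 12 less WT, with 95% intervals; filled points have a limma adjusted p under 0.05, and the grey band spans the lower to the upper quartile of all tested genes in the mean of both lines less WT. ABCE2 (-1.14 and -1.16) and ERF1-1 (0.77 and 1.34) lie outside the band in both lines, while ERF1-3, eRF3 and HBS1 lie inside it.

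Set side by side on the FPKM scale, which is per length, the factors kept most of their order apart from ABCE2 and ERF1-1. In line 5 the order ran ERF1-2, eRF3, ERF1-1, ABCE2, ERF1-3, PEL1, HBS1 and ABCE1, and in line 12 it ran ERF1-1, eRF3, ERF1-2, ABCE2, ERF1-3, PEL1, HBS1 and ABCE1. In WT it ran eRF3, ABCE2, ERF1-2, ERF1-1, ERF1-3, PEL1, HBS1 and ABCE1. Neighbours whose libraries overlapped were the first 3 in line 5, the first 3 in line 12, and ABCE2 with ERF1-2 in WT. ABCE2 was thus level with the most abundant eRF1 gene in WT and below both ERF1-1 and ERF1-2 in every RNAi library. The WT levels of eRF3, ABCE2 and ERF1-2 were at or above those of 92.2%, 91.2% and 91.1% of tested genes, while PEL1 stood at 57.6% and HBS1 at 43.4%.

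The ratio of ABCE2 to PEL1 was also lower in the lines, and the fall of ABCE2, the RNAi target, enters it by design. For each 100 FPKM of PEL1 there were 164.4 and 178.5 FPKM of ABCE2 in line 5 and 184.9, 163.8 and 160.6 in line 12, against 438.8, 496.7 and 482.1 in WT. The lines overlapped each other and neither overlapped WT. In relation to summed eRF1, there were 9.36 and 10.6 FPKM of PEL1 for each 100 of eRF1 in line 5 and 9.01, 8.28 and 8.34 in line 12, against 12.1, 10.9 and 10.6 in WT, so that line 5 replicate 2 lay at the low end of the WT range and the other RNAi libraries below it.

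The genes whose profile over the 8 libraries was most like that of a factor were found by the smallest root mean square difference of centred log2 values among all tested genes. For ABCE2 these were the aminotransferase genes GGAT2 (difference 0.062) and PAT (0.068), the heat shock factor gene HSFA2 (0.079), the myosin-related AT5G41140 (0.079) and the photolyase gene PHR1 (0.083). GGAT2 averaged 22.6 FPKM in line 5 and 22.2 FPKM in line 12, against 49.8 FPKM in WT. HSFA2 averaged only 0.344 FPKM in line 5 and 0.283 FPKM in line 12, against 1.97 FPKM in WT. At such levels the added 1 shrinks the change, so HSFA2 is like ABCE2 on this scale but not in FPKM ratio. For ERF1-1 they were ADF5, an actin depolymerizing factor gene (0.096), EIF6-2, which encodes a factor that keeps the large subunit from joining (0.114), and the peroxidase gene PER50 (0.115). EIF6-2 averaged 96.3 ± 25.7 FPKM (SD, n = 2) in line 5 and 171.1 ± 33.4 FPKM (SD, n = 3) in line 12, against 62.9 ± 2.44 FPKM (SD, n = 3) in WT. Its order of groups is that of ERF1-1, but it was picked for its likeness in these same values. For the factors with small changes the nearest genes were CNX1 for ERF1-2, PCMP-E69 for ERF1-3, AT5G19680 for eRF3, AT3G26920 for PEL1 and AT5G50350 for HBS1, each within 0.036. Libraries of a group share their genotype and growth, so likeness here rests on few independent points.

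Lists of factors that work beside these 9 were read in the same comparison, the mean of both lines less WT, in which 28.1% of all tested genes were called higher and 28.1% lower. Of 13 tested factors of subunit joining and recycling, 5 rose, 2 fell and 6 did not pass the test, which is near that background, with a median log2 change of 0.14. AT5G54940, which encodes a protein of the eIF1 family, the initiation factors that guard start codon choice, had 211.0 ± 21.4 FPKM (SD, n = 2) in line 5 and 265.0 ± 17.3 FPKM (SD, n = 3) in line 12, against 91.9 ± 4.49 FPKM (SD, n = 3) in WT, a log2 change of 1.35 (limma adjusted p = 4.65e-06). EIF6-2, one of the genes nearest to ERF1-1 in profile, rose 2.12-fold (limma adjusted p = 0.00106), so its nearness to the 2.18-fold of ERF1-1 is no separate result. EIF6-1, its second copy, rose by 0.83 (limma adjusted p = 0.00538), at no more than 1.57 FPKM in the lines and 0.216 FPKM in WT, and by 2.48 with a pseudocount of 0.1.

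Among 8 tested genes of stalled ribosome quality control and collision sensing, 1 rose, 5 fell and 2 did not pass the test, beside 28.1% of all tested genes in each direction, with a median log2 change of -0.26, and the list was not tested as a group. RACK1A, a small subunit protein at the site where collided ribosomes meet, averaged 180.5 ± 0.176 FPKM (SD, n = 2) in line 5 and 170.4 ± 7.17 FPKM (SD, n = 3) in line 12, against 273.8 ± 11.5 FPKM (SD, n = 3) in WT. Its log2 change was -0.64, that of RACK1C was -0.62 and that of RACK1B was -0.41 (limma adjusted p = 2.56e-05, 0.00107 and 0.00604). These RACK1 genes encode copies of the same protein and are all among the 5 that fell, so the count does not stand for 5 separate functions. AT3G62240, a RING protein gene listed as the relative of yeast HEL2, which marks collided ribosomes with ubiquitin, rose by 0.42 (limma adjusted p = 0.000179).

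Of 14 tested elongation factor genes, 1 rose, 4 fell and 9 did not pass the test, with a median of -0.14, beside 28.1% of all tested genes in each direction. AT5G12110, an eEF1B gene, had a log2 change of -1.24 (limma adjusted p = 1.18e-05), beside -1.15 for ABCE2. The eEF1A genes AT1G07920 and AT1G07930 had -0.87 and -0.79 (limma adjusted p = 6.63e-06 and 1.69e-05), but eEF1A copies are near-identical, and their split of reads is uncertain. Of 5 ABCF genes, relatives of ABCE in the same superfamily, 2 rose, 2 fell and 1 did not pass the test, beside the same background: ABCF2 had -0.87, ABCF1 0.40 and ABCF5 -0.21.

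Organelles have their own counterparts of these factors. Of 9 tested release and recycling genes of plastids and mitochondria, 1 rose, 2 fell and 6 did not pass the test, with a median of -0.12, beside 56.1% of all tested genes called in either direction. AT3G01800, a ribosome recycling factor gene, had a log2 change of -0.55 (limma adjusted p = 0.00157), PRFB3, a plastid protein of the release factor family, -0.40 (limma adjusted p = 0.000419), and AT1G33330, a class I release factor gene, 0.14 (limma adjusted p = 0.0485). Of 7 tested genes of cytosolic iron-sulfur cluster assembly, which supplies the clusters ABCE proteins carry, 3 rose, 0 fell by limma, also at an unadjusted p under 0.05, and 4 did not pass the test, beside the same 56.1%. AT5G18400, the DRE2 gene of that pathway, had 32.9 ± 1.22 FPKM (SD, n = 2) in line 5 and 29.0 ± 1.81 FPKM (SD, n = 3) in line 12, against 18.7 ± 0.872 FPKM (SD, n = 3) in WT, a log2 change of 0.69 (limma adjusted p = 4.31e-05). NAR1 had 0.24 and ATR3 0.16 (limma adjusted p = 0.00522 and 0.0435). The calls of AT1G33330 and ATR3 were each lost in 11 of 15 alternatives, among them leaving out any 1 WT library, line 5 replicate 1 or line 12 replicate 1 or 2 (adjusted p from 0.0667 to 0.128). The same held for AT1G33330 without line 5 replicate 2 (adjusted p = 0.0754) and for ATR3 without line 12 replicate 3 (adjusted p = 0.0580).

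**Figure D4:**
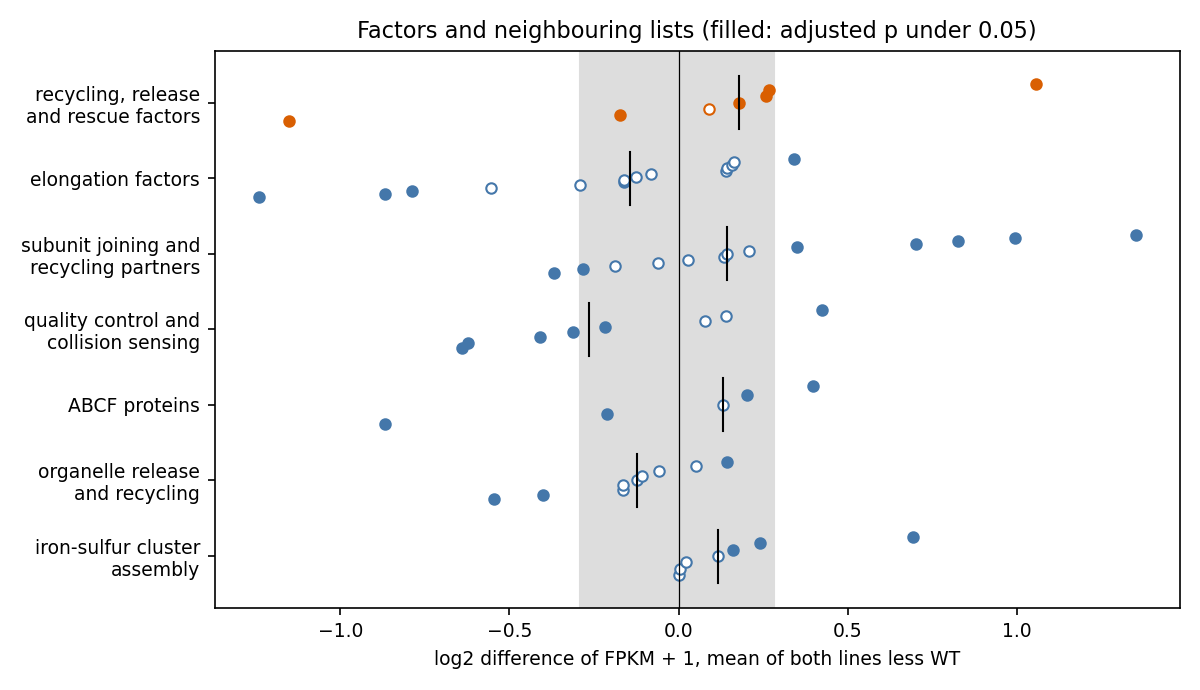
Log2 difference of FPKM + 1 in the mean of both lines less WT for the 7 tested factors (orange) and the tested genes of 6 neighbouring lists (blue); filled points have a limma adjusted p under 0.05, black ticks are medians, and the grey band spans the lower to the upper quartile of all tested genes. ABCE2 at -1.15 and ERF1-1 at 1.06 lie apart from the other 5 factors, which are within the band.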

How the data were processed

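Per the labels' protocols, 1.5 µg of total RNA per sample went into TruSeq RNA libraries; the submitters' processing notes list HISAT2, StringTie and TAIR10, without versions. The authors deposited 1 table of 32833 genes with 1 column per library, read here as FPKM from its values, since no header names the unit. No source read here gives aligner settings, strand or the treatment of shared reads. Multiplied by gene length, 85.9% to 87.3% of low values came out whole in units of 1 fragment (tolerance 0.01), which gave the implied fragments; counts were not used. A count test was therefore replaced by limma 3.58.1 (R 4.3.3) fitted once to all 8 libraries in 3 groups with an intensity trend (prior degrees of freedom 2.71). WT was subtracted from each line and from the mean of the lines, and line 12 from line 5. The fit was tested on simulated data.

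The members, lists and tests were chosen with earlier results of these data known. Named genes were all members, their nearest profiles, and the 3 called genes of each list with the largest change, with RACK1B added beside its copies. Genes without a unique symbol are named by locus. Sequences are RefSeq's (TAIR10.1); 32532 of 32548 matched genes had the table's coordinates. Alternatives were other filters, a pseudocount of 0.1, median centring, rescaling without ribosomal RNA and organelle genes, a replicate block, fits on 2 groups, and leaving out each library or the 3 libraries above 2% ribosomal RNA. The counts of members called, and the named list genes except RACK1B, were put through them after the data were seen. Same-numbered libraries did not deviate together (r from -0.30 to 0.16). Deviations within groups of 2 or 3 depend on each other, so this could not settle whether the numbers pair libraries. Python 3.11.15, pandas 2.3.3 and matplotlib 3.10.9 were used.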

Additional observations from a re-analysis of the deposited data

Results flagged for a closer look

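The lines differed, line 5 less line 12, in 1 of the 7 tested factors and in 5 of the named list genes. Each was tested in the fit over all genes (limma) and recomputed in 16 alternatives. In that comparison 19% of all tested genes were called. The named genes were picked by their change against WT, so their count is not a share of the lists. Also called there, among unnamed genes of the neighbouring lists, were LOS1 (-1.67), AT4G27130 (-0.58), ELF5A-1 (-0.57), AT5G54760 (-0.32), CIA1 (-0.31) and RRF (0.27). Those genes were not put through the alternatives. LOS1 also ranged from 112.0 to 392.1 FPKM within the WT libraries, beside a mean of 94.7 FPKM in line 5 and 303.4 FPKM in line 12. Ribosomal RNA content was above 2% in line 5 replicate 2 and line 12 replicates 2 and 3. Without those 3 libraries, 1 library of each line is left, so the values given for that case are sizes with no replicate check.

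ERF1-1 differed by -0.57 on the log2 scale (limma adjusted p = 0.0468), with every line 5 library below every line 12 library; the call was lost in 10 alternatives, and the difference was -0.07 with 1 library a line. EIF6-2 differed by -0.83 (limma adjusted p = 0.0226); the call was lost in 6, and the difference was -0.24 with 1 library a line. AT5G54940, the eIF1 family gene, differed by -0.33 (limma adjusted p = 0.0335); the call was lost in 8, and the difference was -0.12 with 1 library a line.

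For AT5G12110, PRFB3 and ABCF1 the difference with 1 library a line was not smaller, but such single values do not sort the genes into kinds. The part of ribosomal RNA content in these differences was not tested. AT5G12110, the eEF1B gene, was lower than WT in both lines and less so in line 5, by 0.53 (limma adjusted p = 0.00995); the call was lost in 2 alternatives, and the difference was 0.75 with 1 library a line. PRFB3, lower than WT in both lines, differed by 0.36 (limma adjusted p = 0.00892); the call was lost in 3, and the difference was 0.38 with 1 library a line. ABCF1, higher than WT in both lines, differed by 0.38 (limma adjusted p = 0.00783); the call was lost in 1, and the difference was 0.50 with 1 library a line.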

How the results depend on the processing

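The changes of ABCE2 and ERF1-1 against WT kept their direction in all alternatives run and their call in all that kept RNAi replicates (ABCE2 -1.20 to -1.09, ERF1-1 0.53 to 1.47 over lines and alternatives). Of 441 recomputed member changes, 366 kept direction and side of the threshold, 56 lost a call, 2 (HBS1 in line 12) gained one and 17 turned sign; of 347 for list genes, 304 kept both and 43 lost a call. All 17 turns were in line 5 less line 12, among values that were not called. They were PEL1 at 0.0042 with median centring, ABCE2 at -0.046 and HBS1 at -0.038 after rescaling, and, without the 3 libraries above 2% ribosomal RNA, ABCE2 at -0.093, eRF3 at 0.14, PEL1 at 0.068 and HBS1 at -0.062. Leaving out 1 library at a time gave ABCE2 -0.046 to 0.052, eRF3 -0.073 to 0.060, PEL1 -0.027 to 0.046 and HBS1 -0.046 to 0.078; the cause was not tested.

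Without the 3 libraries above 2% ribosomal RNA, 2 members were called in line 5, 2 in line 12, 3 in the mean of both lines and 0 between the lines, and 7012 genes were called in line 12 and 431 between the lines; that fit holds 1 library a line and takes its spread from WT alone, so these counts say nothing about stability. With no filter, and with only the groups of the contrast, 0 members were called between the lines. Leaving out 1 library gave 2 to 4 members in line 5, 3 to 5 in line 12 and 0 to 1 between the lines, with 5455 to 8800 genes in line 5 and 1403 to 3607 between the lines. Rescaling moved the share of higher calls between the lines to 39.3%, against 52.2%.

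With the replicate number as a block, although pairing by number was not settled, 2 members were called in line 5 and 0 between the lines. In that setting 1539 genes were called between the lines, and ABCE2 was at -0.013 and eRF3 at 0.014 there. ABCE1, at 19 to 45 fragments per library, was tested only without the filter on low values.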
